A study of Mus musculus with 48 samples.

Results

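The genes described here are 9 that microglia, the resident immune cells of the brain, are known to express: the surface receptors Cx3cr1, P2ry12 and Csf1r, the C1q chains C1qa, C1qb and C1qc, the lipid sensor Trem2 with its signalling adaptor Tyrobp, and the lysosomal protease Ctss. They were chosen by name, and all 9 are among the 15782 genes of each expression table. Brain RNA was counted in situ with the GeoMx Digital Spatial Profiler, in which barcoded probes are released from a chosen area of a tissue section and sequenced. The animals were 12 male C57BL/6 mice, 10 weeks old, in 4 groups of 3. FLT-SAL mice were given saline and flew on the International Space Station for 35 days, and GC-SAL mice were given saline and stayed on the ground in flight hardware cages for as long. FLT-BuOE and GC-BuOE mice were kept in the same 2 ways and received BuOE, a manganese porphyrin that mimics superoxide dismutase, at 1 mg/kg in 0.2 mL under the skin, with the first dose 7 days ahead of launch and 1 dose each week after it. The flown mice were brought to the laboratory no later than 20 h after splashdown. In each mouse 1 area was taken from each of 4 regions, the Cornu Ammonis 1 (CA), the dentate gyrus (DG), the frontal cortex (FCT) and the cortex (CT), which gives 48 areas. All areas of a group lay on 1 slide, so slide and group cannot be told apart. The areas were placed with the help of stains for GFAP and for Iba1, the product of the microglial gene Aif1 (not analysed here), so the choice of area was not blind to microglia.

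Microglia survey the neuropil with motile processes. CX3CR1 receives fractalkine (Cx3cl1) from neurons, P2RY12 senses the nucleotides that injured or active cells release, and CSF1R binds CSF1 and IL-34 and is needed for microglial survival. C1QA, C1QB and C1QC assemble into C1q, which starts the classical complement cascade and tags synapses for removal. TREM2 binds lipids and apolipoproteins and signals through TYROBP in activated microglia, and cathepsin S cuts proteins in the endolysosome and outside the cell. C1qa, C1qb and C1qc lie side by side on the minus strand of chromosome 4, within chr4:136880129-136898803 of GRCm38, a stretch of 18.7 kb in the GENCODE M21 annotation. The other members lie apart, with Trem2 on chromosome 17, Tyrobp on 7, Csf1r on 18, Cx3cr1 on 9, and P2ry12 and Ctss both on 3.

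All 9 genes lay close to the background of the assay. The measure is the Q3-normalized count, which is scaled so that the 75th percentile of the genes is the same in every area, and the background is the negative probe, the value given for probes that match no transcript. C1qc had the highest median over the 48 areas, 34.1 Q3-normalized counts or 2.28 times the negative probe of the same area. It was followed by C1qa at 31.6 counts and 2.26 times, C1qb at 29.5 counts and 2.10 times, and P2ry12 at 29.2 counts and 2.04 times. Ctss (26.6 counts, 1.88 times), Csf1r (26.3 counts, 1.76 times) and Cx3cr1 (24.4 counts, 1.67 times) were lower. Tyrobp, at 21.8 counts and 1.4 times, and Trem2, at 20.6 counts and 1.43 times, came last. The median gene of the table stood at 1.93 times the negative probe and the 90th percentile at 4.01 times, so the C1q chains and P2ry12 were near the middle of all genes. Ranked by the median Q3-normalized count, Trem2 was at the 5.94th percentile. Probes differ in efficiency, so this order is one of probe counts and not of transcript numbers.

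**Figure D1:**
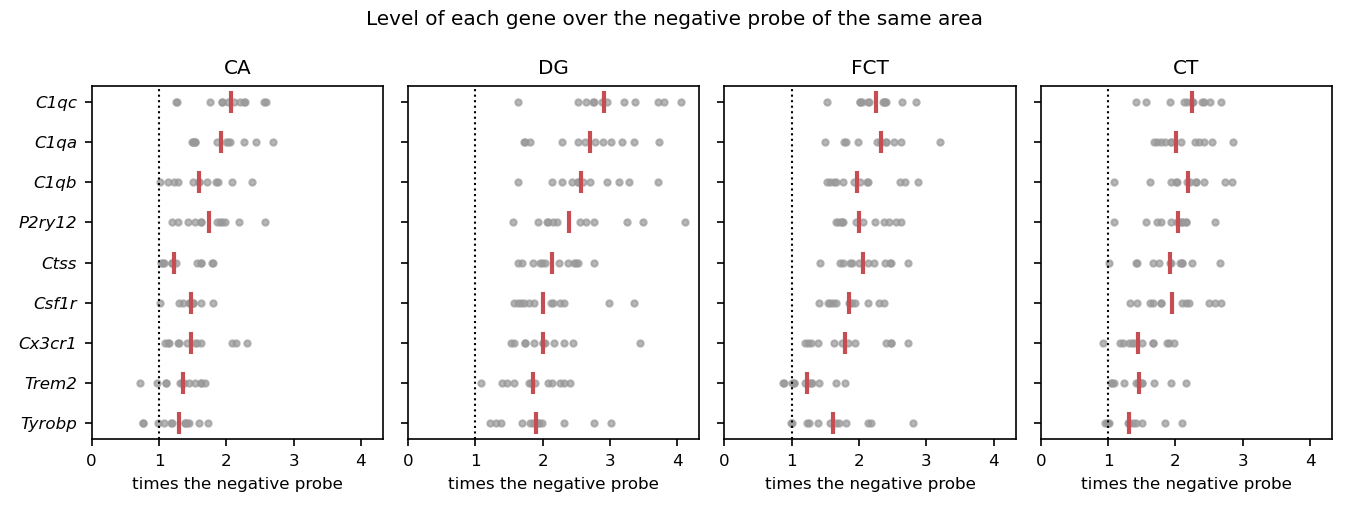
Level of each of the 9 genes as a multiple of the negative probe of the same area, by region. Each grey point is 1 of the 12 areas of a region, the red tick is their median, and the dotted line at 1 is the negative probe. The genes sit farther from the line in DG than in CA, and Trem2 and Tyrobp have points below it.

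P2ry12, Csf1r, C1qa, C1qb, C1qc and Ctss exceeded the negative probe in 48 of 48 areas, Cx3cr1 in 47, Trem2 in 44 and Tyrobp in 41. Above 1.5 times the negative probe the counts fell to 45 areas for C1qa and for C1qc, 44 for P2ry12, 43 for C1qb, 37 for Csf1r and for Ctss, 32 for Cx3cr1, 21 for Tyrobp and 19 for Trem2. The distance to background depended on the region. The median negative probe was highest in CA, at 18.9 Q3-normalized counts, and lower in CT (14.5), FCT (13.9) and DG (11.2), and 58 of the 108 member values in CA passed 1.5 times their negative probe, against 77 in CT, 86 in FCT and 102 in DG.

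The deposited counts show what stands behind these values. An area held 322629 to 1579380 counts in all, with a median of 991426 in FLT-SAL and 548888 in FLT-BuOE, so depth moved with the group and its part in the comparisons was not tested beyond the normalization. A member had between 7 and 81 counts in an area, and its median ran from 21.5 counts for Trem2 to 32.5 for C1qa. The spread between mice of 1 group and region was about that of counting alone. For C1qa, the variance of the counts was 0.846 times the counting variance (a chi-square over 32 degrees of freedom, divided by them). The ratio was 1.07 for C1qc, 1.18 for C1qb and 1.48 for Cx3cr1, the highest of the 9, and its median over all genes was 1.14. On the log2 scale the SD between mice within groups ran from 0.25 to 0.34 for the members, against 0.25 to 0.32 that counting gives by itself. Cx3cl1, with a median of 209.5 counts, stood 5.09 times above its counting variance.

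The members shared little variation across areas. Over the 48 areas, with each gene centred on its region mean, the 36 pairs of members had correlations between -0.24 and 0.29 with a median of 0.05. The C1q chains, whose products form 1 complex, had r = 0.02 for C1qa with C1qb, 0.02 for C1qb with C1qc and -0.13 for C1qa with C1qc. Trem2 and Tyrobp, receptor and adaptor, had r = 0.13. The highest value was 0.29, between Csf1r and Trem2. For the 15 pairs of 6 oligodendrocyte markers in the same areas the correlations ran from 0.40 to 0.78 with a median of 0.54, at levels of 1.90 to 13.6 times the negative probe. These values share areas, slides and depth, and they are given as a description.

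The summed level of the 9 genes is given as a description, with no test. In CA the sum was 268, 284 and 291 Q3-normalized counts in the GC-SAL mice and 278, 264 and 262 in the FLT-SAL mice. In DG it was 257, 252 and 248 in GC-SAL and 231, 231 and 239 in FLT-SAL, the region in which these groups did not overlap. In the same DG areas the summed markers of neurons were at 826 to 889 in FLT-SAL and 662 to 737 in GC-SAL, those of astrocytes at 385 to 420 and 301 to 350, and those of granule cells at 267 to 312 and 203 to 234. The summed markers of border macrophages were at 119 to 134 against 142 to 172 and those of endothelium at 143 to 164 against 166 to 175. None of these 5 sums overlapped between the groups. Of the other sums in DG, that of 15 further microglia genes overlapped, at 488 to 582 in FLT-SAL and 424 to 543 in GC-SAL. The sums of 12 activated microglia genes (465 to 579 and 393 to 502) and of oligodendrocyte markers (408 to 470 and 451 to 493) overlapped too. Among single genes, these groups did not overlap in DG for 14.8% of all genes. The part of these sums in the members' values was not tested. In FCT the GC-SAL mice gave 254, 233 and 250 and the FLT-SAL mice 237, 253 and 241. In CT they gave 255, 238 and 286 against 256, 245 and 239. The FLT-BuOE mice gave 258, 230 and 249 (CA), 262, 191 and 220 (DG), 237, 228 and 229 (FCT) and 235, 197 and 228 (CT). All 3 lay below the FLT-SAL mice in CA and CT, and the groups overlapped or met in DG and FCT. The GC-BuOE mice gave 236, 271 and 282 (CA), 251, 211 and 218 (DG), 242, 278 and 233 (FCT) and 242, 266 and 232 (CT). In an area that mixes cell types, fewer microglia and less RNA per microglial cell cannot be told apart.

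**Figure D2:**
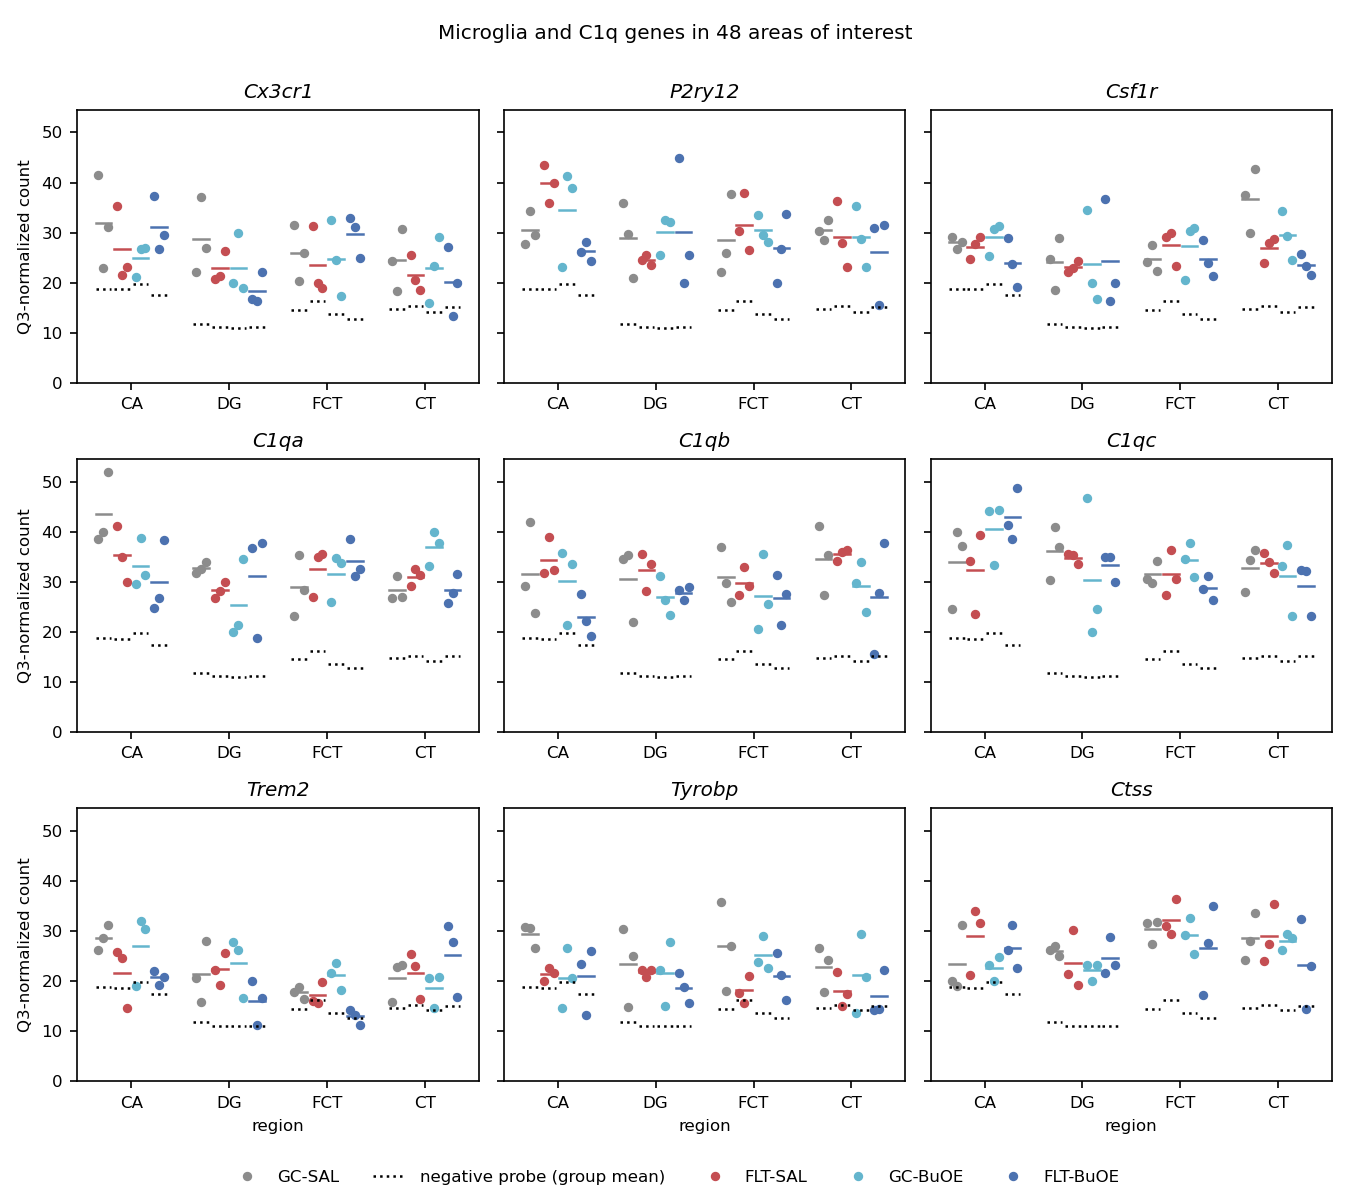
Q3-normalized counts of the 9 genes in the 48 areas, by region and group. Each point is 1 mouse, the solid line is the mean of 3 mice, and the dotted black line is the mean negative probe of that group and region. The groups lie on top of each other in most panels, and in CA the dotted line is close under the points.

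The comparison of FLT-SAL with GC-SAL asked what flight changed in mice given saline. None of the 9 members passed the test in any region. The test was limma on log2(Q3-normalized count + 1), fitted to the 12 areas of a region, with Benjamini-Hochberg adjustment over the 15782 genes, and a gene was called at an adjusted p below 0.05 with a change beyond 1.5-fold. All genes were called at a rate of 0.139% (CA), 0.266% (DG), 0.0507% (FCT) and 0.0887% (CT), so that 0 of 9 says little about these genes in particular. The members' log2 fold changes lay between -0.44 and 0.37 in CA and between -0.30 and 0.10 in DG. In FCT they lay between -0.50 and 0.17 and in CT between -0.42 and 0.13, and the smallest adjusted p was 0.86. Of the 36 tests, 2 had an unadjusted p below 0.05, Tyrobp in FCT and Csf1r in CT, beside 6.73% (CA), 7.41% (DG), 5.66% (FCT) and 5.27% (CT) of all genes. The groups of 3 mice did not overlap for 12.9% (CA), 14.8% (DG), 12.1% (FCT) and 10.4% (CT) of all genes, the share to set beside the members without overlap below.

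C1qa, the first chain of C1q, was at 38.5, 40.0 and 51.9 counts in CA of the GC-SAL mice and at 41.2, 34.9 and 30.0 in FLT-SAL. In DG it was at 31.7, 32.6 and 34.0 against 26.7, 28.1 and 30.0, groups that did not overlap, with a log2 fold change of -0.21 (95% interval -0.67 to 0.26, adjusted p = 0.94). Over the negative probe C1qa overlapped there, at 2.89, 3.02 and 2.52 times in GC-SAL and 2.78, 2.29 and 2.63 times in FLT-SAL. In FCT and CT its fold changes were 0.17 and 0.13. C1qb was within 0.15 of no change on the log2 scale in all 4 regions, and C1qc within 0.07. For C1qc in CT, values of 27.9, 34.3 and 36.3 in GC-SAL stood against 35.7, 34.0 and 31.8 in FLT-SAL.

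Tyrobp, the adaptor, had the most negative difference of the 9 on the means over regions. In CA it was at 30.8, 30.5 and 26.7 counts in GC-SAL and 20.0, 22.6 and 21.6 in FLT-SAL. In FCT it was at 35.8, 18.0 and 27.1 against 17.7, 15.7 and 21.1, and in CT at 26.7, 17.8 and 24.2 against 21.8, 15 and 17.4. The groups did not overlap in CA and overlapped in FCT and CT, as they did in DG, where the log2 fold change was -0.05. Averaged over the 4 regions of each mouse, its level was 30.7, 19.6 and 25.7 in GC-SAL and 20.4, 18.3 and 20.5 in FLT-SAL, a log2 fold change of -0.33 (95% interval -0.61 to -0.04, unadjusted p = 0.026, adjusted p = 0.45 by limma). Without 1 of the mice this value lay between -0.49 and -0.18. Trem2, its receptor partner, was at 26.2, 28.6 and 31.1 in CA of GC-SAL and 25.9, 24.6 and 14.6 in FLT-SAL, also without overlap, and its mean over regions differed by -0.08 (95% interval -0.36 to 0.20). Over the negative probe Trem2 overlapped in CA, at 1.35, 1.62 and 1.62 times in GC-SAL and 1.53, 1.31 and 0.725 times in FLT-SAL. Tyrobp stayed apart in CA, at 1.59, 1.73 and 1.39 times against 1.18, 1.2 and 1.07 times.

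Among the receptors, Csf1r in CT was at 37.6, 29.9 and 42.8 counts in GC-SAL and 24.0, 28.0 and 28.7 in FLT-SAL, which did not overlap. Its log2 fold change was -0.42 (95% interval -0.83 to -0.02, adjusted p = 0.94). Over the negative probe these groups stayed apart, at 2.59, 2.2 and 2.67 times in GC-SAL and 1.43, 1.79 and 2.16 times in FLT-SAL. The GC-SAL area at 37.6 held only 140 nuclei, the fewest of all 48 areas. P2ry12 in CA was at 27.7, 34.3 and 29.6 in GC-SAL and 43.6, 35.9 and 40.0 in FLT-SAL, also without overlap, with a log2 fold change of 0.37 (95% interval -0.11 to 0.85). Over the negative probe P2ry12 overlapped there, at 1.43, 1.94 and 1.54 times in GC-SAL and 2.57, 1.91 and 1.98 times in FLT-SAL. In DG, FCT and CT its log2 fold changes were -0.20, 0.16 and -0.08, each with an interval that includes 0. Cx3cr1 overlapped between these groups in every region, and its mean over regions was 29.0, 23.8 and 28.6 in GC-SAL and 27.7, 20.8 and 21.5 in FLT-SAL. Ctss, the protease, overlapped in every region as well, and its mean over regions differed by 0.06 (95% interval -0.18 to 0.30).

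The comparison of FLT-BuOE with FLT-SAL asked what the compound changed in flight, and again 0 of 9 members were called in any region, where the rate over all genes was 0.00634% (CA), 0% (DG), 0.0317% (FCT) and 0.0697% (CT). C1qb held the smallest p of the members in any group comparison. Averaged over regions it was at 32.1, 33.7 and 32.8 counts in the FLT-SAL mice and at 24.9, 24.3 and 27.6 in the FLT-BuOE mice. The 3 FLT-BuOE mice lay below the 3 FLT-SAL mice, as did the GC-BuOE mice at 28.7, 28.7 and 26.3. The GC-SAL mice, at 35.2, 33.2 and 26.3, overlapped with both flight groups. The log2 fold change of C1qb was -0.35 (95% interval -0.58 to -0.12, unadjusted p = 0.0032), and its adjusted p was 0.29 by limma over all genes. Over 19 alternative settings the adjusted p ran from 0.17 to 0.80. On the means over regions 0.0317% of all genes were called, 7.90% had an unadjusted p below 0.05, and the groups did not overlap for 13%. By each of the latter counts C1qb was the 1 member of 9. The other chains differed less, although the difference between chains was not tested. C1qa differed by -0.06 (95% interval -0.29 to 0.18) and C1qc by 0.00 (95% interval -0.23 to 0.23).

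By region, C1qb in CA was at 31.8, 39.0 and 32.3 counts in FLT-SAL and 27.6, 22.2 and 19.1 in FLT-BuOE (log2 fold change -0.57, 95% interval -1.08 to -0.05, adjusted p = 0.98 by limma). In CT it was at 34.2, 36 and 36.4 against 15.5, 27.8 and 37.7, where the first FLT-BuOE mouse was lowest and the groups overlapped. P2ry12 in CA was at 43.6, 35.9 and 40.0 in FLT-SAL and 26.2, 28.2 and 24.4 in FLT-BuOE, without overlap, with a log2 fold change of -0.58 (95% interval -1.06 to -0.10, adjusted p = 0.94). On the Q3 scale, these groups did not overlap in CA for 2 of 9 members, P2ry12 and C1qb, and for 11.3% of all genes. For P2ry12 in CA the GC-BuOE mice were at 23.2, 41.4 and 38.9. The value of 23.2 lay below all FLT-BuOE mice, and 41.4 and 38.9 lay within the FLT-SAL range. In DG the fold change of P2ry12 had the other sign, 0.21, and 1 FLT-BuOE mouse there was at 45.0. C1qc in CA was at 34.1, 23.6 and 39.3 in FLT-SAL and 41.4, 38.5 and 48.7 in FLT-BuOE, which overlapped.

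Flight under BuOE, FLT-BuOE against GC-BuOE, gave 0 of 9 members called in each region, beside 0.0444%, 0.108%, 0.0190% and 0.0127% of all genes in CA, DG, FCT and CT. Trem2 in FCT was at 21.6, 23.7 and 18.2 counts in GC-BuOE and 14.3, 13.3 and 11.3 in FLT-BuOE, and all 3 FLT-BuOE mice were below every other mouse in that region. The log2 fold change was -0.67 (95% interval -1.22 to -0.11, adjusted p = 0.60 by limma). These FLT-BuOE values were 1.19, 1.03 and 0.873 times the negative probe and the GC-BuOE values 1.65, 1.79 and 1.26 times it. The FLT-SAL values were 0.89, 1.01 and 1.3 times it and the GC-SAL values 1.4, 1.28 and 1.04 times. Over the negative probe, the FLT-BuOE mice were thus not below every other mouse. Over the 12 areas of FCT the median of Trem2 was 1.22 times the negative probe, and its median Q3-normalized count was in the lowest 0.463% of genes there. In CT the difference was 0.39 in the other direction, with 20.6, 14.7 and 20.8 in GC-BuOE and 31.0, 27.8 and 16.9 in FLT-BuOE. C1qa in CT was at 33.2, 40.0 and 37.7 in GC-BuOE and 25.8, 27.8 and 31.6 in FLT-BuOE, with a log2 fold change of -0.37 (95% interval -0.75 to 0.01). On the Q3 scale, these groups did not overlap for 1 of 9 members in FCT (Trem2) and 1 of 9 in CT (C1qa). The share of all genes without overlap was 11.0% in each of these regions.

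BuOE on the ground, GC-BuOE against GC-SAL, also gave 0 of 9 members called in each region, with 0% of all genes called in CA, DG and CT and 0.00634% in FCT. C1qa in CT was at 26.7, 31.1 and 27.0 in GC-SAL and 33.2, 40.0 and 37.7 in GC-BuOE, the only member that was higher without overlap in this comparison (log2 fold change 0.37, 95% interval -0.01 to 0.75). In CA and DG the same gene had log2 fold changes of -0.38 and -0.40 with intervals that include 0. Ctss in DG was lower without overlap, at 26.2, 27.0 and 25.0 against 23.3, 20.0 and 23.3. Over the negative probe Ctss overlapped there, at 2.38, 2.5 and 1.86 times in GC-SAL and 2.03, 1.63 and 2.53 times in GC-BuOE. On the Q3 scale, these groups did not overlap for 8.20% (CT) and 9.76% (DG) of all genes, beside 1 of 9 members in each. The test of whether the flight effect differed between saline and BuOE mice gave 0 of 9 members in each region. All genes were called in that test, with no threshold of fold change, at 0.00634% in CA and FCT, 0% in DG and 0.0190% in CT. Its largest member value was that of P2ry12 in CA, 0.71 on the log2 scale (95% interval 0.03 to 1.39, adjusted p = 0.91).

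**Figure D3:**
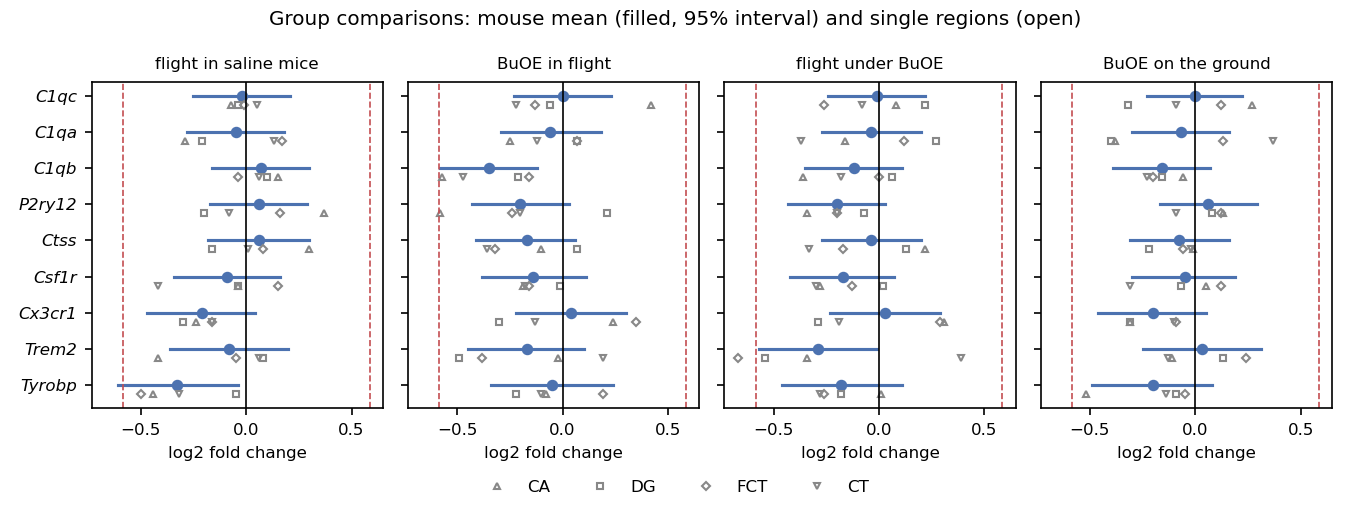
Log2 fold changes of the 9 genes in the 4 group comparisons. Filled points are limma estimates on the mouse means over 4 regions with 95% intervals, open symbols are single regions, and the dashed red lines mark a change of 1.5-fold. No interval of a mouse mean excludes 0 other than those of Tyrobp for flight in saline mice, C1qb for BuOE in flight and Trem2 for flight under BuOE, and no adjusted p of these is under 0.29.

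Counted over the 16 comparisons of 2 groups within a region, 12 of 144 member comparisons had groups without overlap, or 8.33%, against 11.2% over all genes. With the 4 interaction tests added, 7 of 180 member tests had an unadjusted p below 0.05 by limma, or 3.89%, against 6.07% over all genes. The quasi-likelihood test of edgeR, run on whole counts, gave 6 of 180 and DESeq2 0 of 180, with an adjusted p for 117, and neither called a member. The means over regions are the narrowest estimates. There 0 of 9 members were called in each comparison, beside 0.101% of all genes for flight in saline mice, 0.0317% for BuOE in flight, 0.0887% for flight under BuOE and 0% for BuOE on the ground. For C1qc the interval ran from -0.25 to 0.21 for flight in saline mice, and for C1qa from -0.28 to 0.18, so these data leave room for changes of that size in either direction.

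Between regions of the same mouse no member was called on the Q3 scale. The test was limma over the 48 areas with the mouse as a block. It gave 0 of 9 members in each comparison, although 4.10% of all genes were called for DG against CA, 5.79% for DG against CT, 4.54% for DG against FCT, 3.98% for CA against CT, 3.28% for CA against FCT, 0.101% for FCT against CT and 3.18% for hippocampus (DG and CA) against cortex (FCT and CT). The labelled regions carried their own markers, with DG minus CA at 1.79 on the log2 scale for the granule cell gene Prox1 and at -1.51 for Wfs1, a gene of CA1 neurons. Since Iba1 stain guided the placing of the areas, the levels below are those of chosen areas.

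Trem2 had the largest region difference. It was at 24.5 ± 5.48 counts in CA, 21.5 ± 5.05 in CT, 20.9 ± 5.31 in DG and 17.3 ± 3.51 in FCT (mean ± SD, n = 12). CA exceeded FCT by 0.48 (95% interval 0.20 to 0.75, adjusted p = 0.0073 by limma), under the threshold of 1.5-fold, and neighbours in this order did not differ at an adjusted p below 0.05. Divided by the negative probe, the same difference was 0.11 (95% interval -0.18 to 0.40). Cx3cr1 was at 28.7 ± 6.57 in CA, 26.0 ± 5.83 in FCT, 23.2 ± 6.03 in DG and 22.2 ± 5.35 in CT, and CA exceeded CT by 0.36 (95% interval 0.11 to 0.61, adjusted p = 0.031), which became 0.04 over the negative probe. Csf1r was at 29.2 ± 6.30 in CT, 27.1 ± 3.43 in CA, 26.0 ± 3.79 in FCT and 23.8 ± 6.57 in DG, and DG was 0.30 below CT (95% interval -0.52 to -0.07 for DG minus CT, adjusted p = 0.049), which became 0.09 above it over the negative probe.

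C1qc was at 37.4 ± 7.58 counts in CA, 33.7 ± 7.00 in DG, 31.8 ± 4.73 in CT and 31.5 ± 3.54 in FCT, C1qa at 35.5 ± 7.53, 29.3 ± 6.49, 31.2 ± 4.36 and 31.7 ± 4.69 in the same regions, and C1qb at 29.8 ± 7.24, 29.4 ± 4.62, 31.6 ± 7.11 and 28.7 ± 5.06 (mean ± SD, n = 12). For C1qb, DG minus CA was 0.01 (95% interval -0.22 to 0.23), and for C1qa it was -0.27 (95% interval -0.49 to -0.06, adjusted p = 0.055 by limma). For C1qc, CA minus FCT was 0.22 (95% interval 0.01 to 0.43, adjusted p = 0.15). P2ry12 was at 32.8 ± 7.11 in CA, 29.4 ± 5.62 in FCT, 28.7 ± 5.81 in CT and 28.4 ± 7.10 in DG. Ctss was at 29.5 ± 5.01 in FCT, 27.2 ± 5.55 in CT, 25.4 ± 5.26 in CA and 24.1 ± 3.39 in DG, and Tyrobp at 23.1 ± 5.50 in CA, 22.9 ± 5.88 in FCT, 21.4 ± 4.87 in DG and 19.8 ± 5.21 in CT. No neighbours in the order of P2ry12, Ctss or Tyrobp, or of a C1q chain, differed at an adjusted p below 0.05.

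The scale decides the direction between DG and CA. On the Q3 scale 8 of 9 members were lower in DG, with a median of -0.20 against -0.07 over all genes. Divided by the negative probe, all 9 were higher in DG, from 0.43 for Cx3cr1 to 0.74 for C1qb, and C1qb, Ctss (0.68) and Tyrobp (0.63) were called. On that scale 64% of all genes were called and the median gene was 0.66 higher in DG, and 7 of the 9 members were below that median, as 7 were below -0.07 on the Q3 scale.

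**Figure D4:**
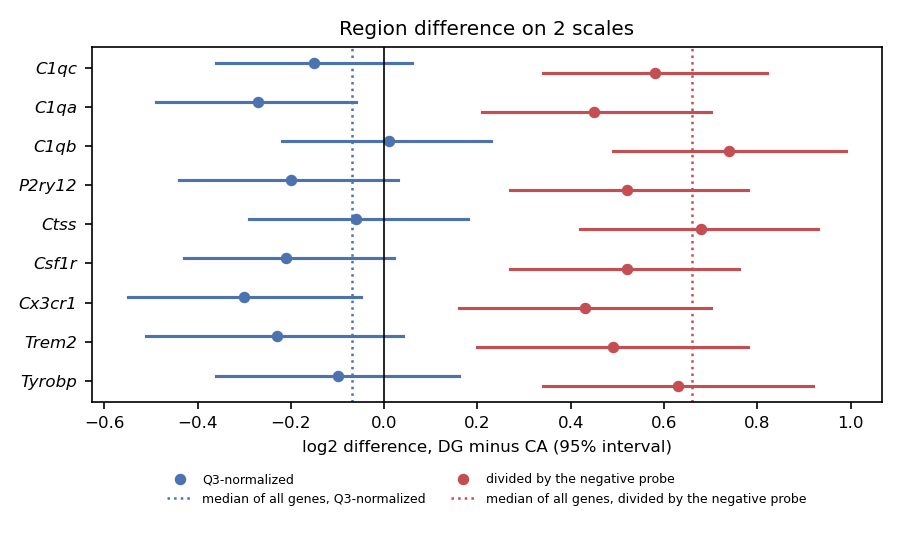
Log2 difference between DG and CA for the 9 genes on the Q3 scale (blue) and after division by the negative probe (red), with 95% intervals from limma over 48 areas. The dotted lines are the medians of all genes, -0.07 and 0.66. On each scale 7 of the 9 points lie below the median of all genes, and all red intervals exclude 0.

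The ligands of the receptors were measured in the same areas. Cx3cl1, the neuronal ligand of CX3CR1, was abundant at a median of 12.7 times the negative probe, and it differed strongly between regions. It was at 245 ± 51.7 counts in CT, 237 ± 50.4 in FCT, 189 ± 37.4 in CA and 112 ± 16.7 in DG (mean ± SD, n = 12). The highest DG area, at 143, was below the lowest FCT area at 157 and the lowest CT area at 169. DG minus CT was -1.10 on the log2 scale (95% interval -1.27 to -0.94, adjusted p = 2.7e-21 by limma) and DG minus FCT was -1.06 (95% interval -1.23 to -0.89, adjusted p = 4.9e-20), and over the negative probe both differences held, at -0.71 and -0.72. Against CA the difference was -0.74 on the Q3 scale and -0.01 over the negative probe. Cx3cr1 itself was 0.06 higher in DG than in CT on the Q3 scale (95% interval -0.19 to 0.31). Over the negative probe Cx3cr1 was 0.47 higher (95% interval 0.20 to 0.73, adjusted p = 0.0019 by limma), under the threshold of 1.5-fold. Between groups Cx3cl1 was not called in any comparison, but its values for flight in saline mice had opposite signs by region. In FCT it was at 157, 199 and 176 counts in FLT-SAL and 301, 211 and 246 in GC-SAL (log2 fold change -0.50, 95% interval -0.81 to -0.19, adjusted p = 0.43 by limma). In CT it was at 169, 202 and 202 against 256, 324 and 220 (-0.47, 95% interval -0.79 to -0.15, adjusted p = 0.62). In DG it was at 143, 132 and 121 against 96.6, 113 and 112 (0.30, 95% interval 0.01 to 0.59, adjusted p = 0.66). The groups did not overlap in these 3 regions, as was so for 12.1% (FCT), 10.4% (CT) and 14.8% (DG) of all genes. The value in CA was 0.13, and the mean over regions, -0.13, averages over the signs. The difference between regions in this contrast was not tested.

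Il34, a ligand of CSF1R made largely by neurons, was at 34.8 ± 6.02 counts in CT, 30.3 ± 7.01 in FCT, 29.6 ± 5.41 in CA and 21.1 ± 6.22 in DG (mean ± SD, n = 12). DG minus CT was -0.73 on the log2 scale (95% interval -0.97 to -0.50, adjusted p = 2.2e-07 by limma), and -0.36 after division by the negative probe, under the threshold of 1.5-fold. Csf1, the other ligand, was not called between regions on the Q3 scale. It was at 26.0 ± 5.80 counts in FCT, 25.9 ± 5.02 in CT, 25.3 ± 4.28 in DG and 23.6 ± 3.71 in CA, at a median of 1.67 times the negative probe. After division by the negative probe, DG minus CA was 0.83 (95% interval 0.58 to 1.09, adjusted p = 4.8e-09 by limma). On that scale the median gene was also higher in DG than in CA. Between groups neither Csf1 nor Il34 was called in any region. In CT, FLT-SAL minus GC-SAL was -0.51 for Csf1 (95% interval -0.94 to -0.09, adjusted p = 0.86 by limma). For Il34 it was -0.44 (95% interval -0.82 to -0.06, adjusted p = 0.86). Neither gene overlapped between these groups, as was so for 10.4% of all genes. FLT-BuOE minus FLT-SAL of Il34 in CT was 0.52 (95% interval 0.14 to 0.89, adjusted p = 0.61). In the other regions these intervals included 0.

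**Figure D5:**
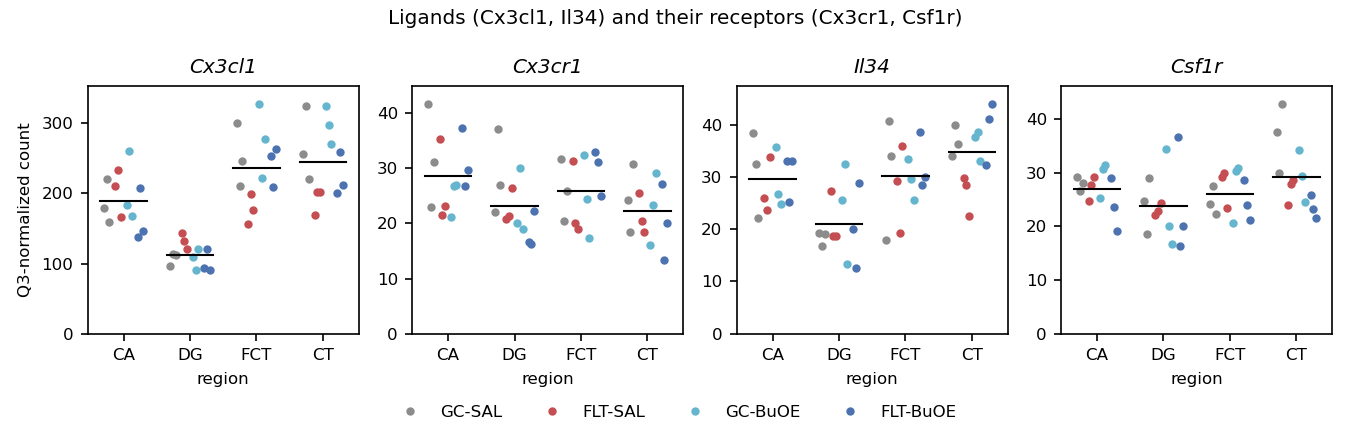
Q3-normalized counts of the ligands Cx3cl1 and Il34 and of the receptors Cx3cr1 and Csf1r in the 48 areas, coloured by group. The black lines are the means of the 12 areas of a region. On this scale both ligands are lowest in DG and neither receptor was called between regions. The vertical axes differ between panels.

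Other genes of the same cells and pathways were counted in lists. Of 18 further microglia genes 15 were in the tables, at 1.4 to 11.4 times the negative probe with a median of 1.65. The most abundant was Cst3, the protease inhibitor cystatin C, which astrocytes also express. None of the 15 was called in a group comparison or between regions. Their median log2 fold change for flight in saline mice, on the means over regions, was -0.06 against 0.01 for all genes. Of the 15, 5 had an unadjusted p below 0.05 by limma there, beside 8.79% of all genes. These 5 were not all lower, since they included Cst3, which was higher by 0.41 (95% interval 0.17 to 0.64, adjusted p = 0.088 by limma). Of the 18 other complement genes 13 were in the tables, at 1.35 to 2.55 times the negative probe, and 0 were called in any comparison. Cfp, encoding properdin, had the smallest adjusted p of these between groups, 0.051 by limma for flight under BuOE, with means over regions of 38.2, 37.2 and 44.9 in GC-BuOE and 28.4, 32.3 and 26.0 in FLT-BuOE. C4b, a substrate of the C1 complex, was at 25.6, 27.9 and 22.0 in FLT-SAL and 25.9, 22.5 and 29.5 in GC-SAL. Of 16 inflammatory mediators 9 were in the tables, and 0 of them, Tnf and Ccl4 included, were called.

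Apoe, a ligand of TREM2 and a marker of activated microglia that astrocytes also make, stood apart from the members. Averaged over regions it was at 111, 164 and 141 counts in GC-SAL and 162, 214 and 213 in FLT-SAL, which overlapped at their edges. The log2 fold change was 0.50 (95% interval 0.27 to 0.73, adjusted p = 0.015 by limma), under the fold threshold, and the adjusted p was 0.32 without the first GC-SAL mouse. In the BuOE mice it was at 117, 162 and 152 on the ground and 140, 166 and 143 in flight. Of the 12 activated microglia genes in the tables, 0 were called in a group comparison, and 4 had an unadjusted p below 0.05 for flight in saline mice on the means over regions, beside the 8.79% of all genes. Of the 10 other cathepsins and cystatins 0 were called between groups, and Ctsb and Ctsd, both lysosomal proteases, had DG minus CT differences of -0.85 and -0.66 on the log2 scale, which were -0.48 and -0.26 after division by the negative probe.

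Markers of other cells that could supply these transcripts were read in the same way. The 6 markers of border macrophages in the tables stood at 1.49 to 1.85 times the negative probe, and their summed level ranged from 117 to 169 Q3-normalized counts over the FLT-SAL areas and from 122 to 186 over the GC-SAL areas, with no overlap of the groups within DG. Pf4 was the 1 of them with an adjusted p below 0.05, at 34.6, 31.3 and 30.7 in GC-SAL and 24.7, 19.6 and 22.8 in FLT-SAL on the means over regions (log2 fold change -0.51, 95% interval -0.74 to -0.28, adjusted p = 0.014 by limma). Without the second FLT-SAL mouse its adjusted p was 0.24. Of the 8 blood leukocyte markers 4 were in the tables, at 1.51 to 4.66 times the negative probe, and 0 were called between groups. Their part in the members' values was not tested. In CT, the oligodendrocyte genes Mobp and Cnp were called for flight in saline mice, 1.33 and 0.87 higher on the log2 scale, where 0.0634% of all genes were called higher, in the same areas in which Csf1r was lower without passing the test.

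The genes whose pattern was most like the mean of the members, over the 48 areas with each gene centred on its region mean, were Prkdc, Ctnnbl1 and Dmpk with r = 0.58, Piezo1 and Afap1l1 with r = 0.57, Ssh3 with r = 0.56, Npas3 and Pla2g5 with r = 0.55, Siglec1 with r = 0.54 and Galnt9 with r = 0.53. They were taken from 13609 genes with a median of at least 1.5 times the negative probe. These 10 stood at 1.52 to 3.87 times it, and 0 of them were in the gene lists. Other microglia genes were not near the top: the 10 of them among the candidates had a median r of 0.14, against 0.04 over all candidates and -0.23 for the neuron markers. The lowest r over the candidates was -0.64, larger in size than the highest, 0.58. Without centring, 3 of the 10 genes stayed in the list.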

How the data were processed

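RNA was measured with the GeoMx Digital Spatial Profiler (mouse whole transcriptome probes) on 6 μm sections, in 48 areas of interest from 12 mice. The authors converted reads with the GeoMx NGS Pipeline 2.3.4 and removed duplicates, which gave the deposited probe counts. The authors deposited Q3-normalized counts, a signal scaled to the upper quartile, together with the negative probe. The deposited tables of the authors' own comparisons (fold changes and p-values) were not used. The total was 322629 to 1579380 counts per area, with a median of 652040. For 15777 of the 15782 genes, the normalized values matched the whole counts of exactly 1 probe.

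Tests were run with limma 3.58.1 in R 4.3.3 on log2(value + 1), over all genes, with a mean-variance trend. Group comparisons used 12 areas of a region or 12 mouse means over 4 regions, and region comparisons used 48 areas with the mouse as a block. Mice are separate animals, each giving 1 area per region. Alternatives were edgeR 4.0.16, DESeq2 1.42.0, a pseudocount of 10, a filter at 1.5 times the negative probe, scaling to or subtracting the negative probe, a replicate block, no variance trend, fits of only the groups compared, region comparisons in GC-SAL mice alone, all 48 areas with the mouse as a random block, and leaving out each mouse. The code was tested on simulated data. The 9 genes and all lists were chosen with earlier results of these data known. Named genes were the members, Csf1, Il34, Cx3cl1, genes called in a list, the 3 most abundant of each list and the 10 most like the members, and markers named for the check of the labelled regions. Likeness and correlations carry no p. Same-numbered mice of different groups had correlated deviations of -0.18 to 0.17 and were not paired.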

Additional observations from a re-analysis of the deposited data

How the results depend on the processing

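The limits of these data are depth and background: a member had 7 to 81 counts in an area, and its level was at most 2.28 times the negative probe in the median. Of 644 counts of called members under the alternatives, 636 stayed as they were and 8 moved, all between regions. Scaled to the negative probe, 3 members were called for DG against CA, 1 for CA against FCT and 1 for DG against FCT. With the negative probe subtracted, 3 members were called for DG against CA (C1qb, Ctss and Tyrobp) and 1 each for CA against FCT (Ctss), CA against CT (Csf1r), DG against CT (Tyrobp) and DG against FCT (Trem2). Csf1r in DG against CT turned from -0.30 to 0.09 when scaled to the negative probe, and Plac8, a leukocyte gene called lower in DG than in CA at -0.63, turned to 0.08. The negative probe was lowest in DG, so by its construction this scale raises DG against every other region. No member was called in a group comparison under any of 4559 combinations of member, comparison and alternative, and DESeq2 gave an adjusted p for 117 of 180 tests. Of 9414 values of single genes under the alternatives, 9291 stayed on the same side of the threshold whatever their sign, 99 fell short of it, 21 newly passed it, 2 turned as given above, and 1, the overlap of the likeness list, moved to 3 of 10 genes. Direction was less stable than these counts: 410 values had the opposite sign from the reported one, 68 of them between regions with the negative probe divided out or subtracted and 342 elsewhere, and 3 of them, all scaled to the negative probe, turned a value with an adjusted p below 0.05 by limma: the 2 given above and Il34 in DG against CA, from -0.50 to 0.21. With the replicate block the members called stayed at 0 in every comparison, while over all genes the calls for flight in saline mice moved from 22 to 52 in CA and from 8 to 19 in FCT, and the interaction on mouse means from 0 to 35. Without the mean-variance trend these calls fell from 22 to 0 in CA, from 42 to 0 in DG, from 8 to 2 in FCT and from 14 to 4 in CT. Scaled to the negative probe they fell from 22 to 2 in CA and from 42 to 3 in DG, while those for BuOE in flight in FCT rose from 5 to 278. edgeR called 48 genes for flight in saline mice in CA against 22 by limma, and 26 against 8 in FCT. Leaving out 1 mouse moved the log2 fold change of C1qb for BuOE in flight, on mouse means, between -0.41 and -0.32, and that of Tyrobp in FCT for flight in saline mice between -0.75 and -0.28.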

Other observations

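S100a9, a gene that neutrophils are known to express, stood at 4.66 times the negative probe, a higher multiple than any of the 9 members reached in the median, with means over regions of 79.0, 81.2 and 73.1 Q3-normalized counts in FLT-SAL, 68.5, 72.9 and 77.8 in GC-SAL, 57.2, 69.2 and 67.5 in FLT-BuOE and 59.9, 70.8 and 68.2 in GC-BuOE. The groups of saline mice overlapped. The source of these counts was not tested.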
